A study of Mus musculus with 4 samples.

Results

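Transcripts of 10 receptors of the BMP and TGF-beta family were followed in cells of the bulge, where the hair follicle keeps its stem cells, from mice in which deletion of Alk1 was directed at endothelium. The 10 genes were listed by name from the family's type I, type II and accessory receptors, the deleted gene Acvrl1 (which encodes ALK1) included, and each matched 1 of the 55536 genes in the count table. All 10 were tested, among 14259 genes that passed a filter on low counts.

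The series holds 4 RNA sequencing libraries of bulge cells from skin of C57BL/6 mice at postnatal day 20. Knockout libraries 1 and 2 came from mice carrying Cdh5CreERT2 and floxed Alk1 alleles (flox/flox), and control libraries 1 and 2 from littermates without Cre. Tamoxifen was injected intraperitoneally at postnatal day 17, at 100 µg per g of body weight, in both groups. Cdh5CreERT2 expresses a tamoxifen-activated Cre from the promoter of VE-cadherin, so deletion was directed at blood vessel lining and not at the bulge cells that were sequenced. The sources used here do not give whether controls carried floxed alleles, how many mice went into a library or how the bulge cells were isolated. The p-values therefore measure the spread between these samples, which may be partly technical.

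Receptors of this family work as complexes. A ligand joins type II receptors, whose kinases are always active, to type I receptors, which are then phosphorylated and pass the signal to SMAD proteins in the cell. Accessory receptors such as betaglycan and endoglin bind ligand at the surface and have no kinase. In the bulge, BMP signalling is known for holding stem cells at rest, and TGF-beta signalling for helping their activation. ALK1 is best known as a receptor of blood endothelium.

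Libraries held 16326906 to 29130974 counts. Of the bulge markers, Krt15, a bulge keratin, measured 31743 ± 3754 CPM in controls and 35402 ± 870 in knockouts (SD, n = 2 each; CPM is the count scaled to library size after TMM normalisation). Cd34, a surface marker of the bulge, measured 1767 ± 257 CPM in controls and 1567 ± 337 in knockouts. The 18 bulge markers summed to 77324 and 90543 CPM in controls and 91634 and 83963 in knockouts. Of them, 10 were lower in knockouts and 8 higher. The 10 upper follicle and inner bulge markers summed to 2336 and 2238 CPM in controls and 3035 and 2790 in knockouts. Here 1 was lower and 9 higher, where 52.5% of all tested genes were lower. Control 1 was highest in sums of interfollicular and sebaceous markers. Its 12 interfollicular differentiation genes summed to 14530 CPM against 6376 in control 2 and 10159 and 5332 in knockouts 1 and 2, and its 12 sebaceous gland genes to 1587 against 851, 1077 and 919. The 12 fibroblast markers summed to 198 and 248 CPM in controls and 155 and 150 in knockouts. The 12 pericyte and smooth muscle markers summed to 635 and 655 against 522 and 559, and the 9 melanocyte markers to 114 and 135 against 86.4 and 90.6. Of these, 5 fibroblast, 8 pericyte and smooth muscle and 6 melanocyte markers averaged under 1 CPM, so each sum rests on few genes. Tested members differed in sign, with 5 lower and 3 higher in knockouts, 4 and 2, and 4 and 2. The 14 immune markers summed to 90.9 and 73.7 CPM in controls and 86.5 and 95.1 in knockouts. The 13 cell cycle genes summed to 84.2 and 60.2 CPM in controls and 43.2 and 34.5 in knockouts. By edgeR, 6 of them were lower at an unadjusted p under 0.05, a cut that 5.94% of all tested genes passed as lower. At an adjusted p under 0.05, 0 of the 13 were lower, where 0% of all tested genes (edgeR) and 0.54% (DESeq2) were. What these sums have to do with the receptor values was not tested.

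A pair of promoters is shown because they lie far apart in CG content and belong to receptors far apart in level. The 250 bases before the start of Acvr2a (chr2:48813859-48814108, plus strand), the second highest receptor, and of Eng (chr2:32646345-32646594, plus strand), the lowest, are given from RefSeq on GRCm38.p6, 5′ to 3′, with each CG pair in capitals.
Acvr2a: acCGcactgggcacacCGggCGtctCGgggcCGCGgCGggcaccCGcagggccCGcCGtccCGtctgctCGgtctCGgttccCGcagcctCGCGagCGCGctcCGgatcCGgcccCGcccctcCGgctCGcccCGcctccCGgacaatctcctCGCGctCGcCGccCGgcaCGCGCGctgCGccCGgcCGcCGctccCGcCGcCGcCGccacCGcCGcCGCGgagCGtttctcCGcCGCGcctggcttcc
Eng: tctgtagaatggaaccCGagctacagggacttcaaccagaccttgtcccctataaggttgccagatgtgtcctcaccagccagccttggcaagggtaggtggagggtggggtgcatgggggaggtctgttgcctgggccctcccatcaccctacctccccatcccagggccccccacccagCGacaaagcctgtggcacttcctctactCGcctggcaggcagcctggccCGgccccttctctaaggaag
The Acvr2a window holds 49 CG pairs, a number reached by 0.146% of 32851 such windows of the genome's genes, and the Eng window holds 4, reached by 62.2%. Of the other receptors, Acvr1 has 46, Bmpr1a 36, Acvr2b 24, Bmpr2 22 and Tgfbr2 12. Tgfbr1 has 29 and 3 at its 2 listed starts. Acvrl1 and Tgfbr3 had no entry. A CG pair reads the same on both strands, and these counts describe the letters only. The pair was picked on both CG content and level, so it cannot show whether they go together, which was not tested.

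Receptor levels spanned a wide range. Per kilobase of exon, which makes genes of different length comparable, the mean over the 4 libraries ran from 0.643 CPM per kilobase for Eng to 25.9 for Bmpr1a. Bmpr1a, the type I receptor ALK3 that carries much of BMP signalling in the follicle, measured 22.6 and 24.05 CPM per kilobase in controls and 29.4 and 27.5 in knockouts. It was the highest of the 10 in each library, and its lowest library lay above the highest of the next receptor, Acvr2a. Acvr2a, a type II receptor of activins and some BMPs, measured 10.98 and 13.4 CPM per kilobase in controls and 10.96 and 8.39 in knockouts.

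Below these came a group with overlapping ranges. Tgfbr1 (ALK5, the TGF-beta type I receptor), Tgfbr2 (its type II partner), Bmpr2 (the BMP type II receptor with a long tail inside the cell), Acvr1 (the BMP type I receptor ALK2) and Acvrl1 averaged 8.20, 6.64, 6.31, 5.48 and 5.10 CPM per kilobase. Neighbours Acvr2a and Tgfbr1, Tgfbr1 and Tgfbr2, Tgfbr2 and Bmpr2, and Acvr1 and Acvrl1 had overlapping ranges over the libraries. Acvr1 and Acvrl1 changed places: Acvr1 was higher in 2 of 4 libraries. Bmpr2 and Acvr1 were barely apart, at 5.8074 CPM per kilobase in the lowest library of Bmpr2 and 5.8064 in the highest of Acvr1. Using the longest transcript in place of all exons moved Acvr1 to 8.03 and Bmpr2 to 8.80 CPM per kilobase, with Tgfbr2 then below both at 6.72.

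A clear step followed. Acvrl1 in its lowest library (4.20 CPM per kilobase) lay above Tgfbr3 in its highest (2.81), and the means differed 2.80-fold. Tgfbr3, which encodes betaglycan, and Acvr2b, the second activin type II receptor, averaged 1.82 and 1.78 CPM per kilobase, with overlapping ranges. Eng came last in each library.

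**Figure D1:**
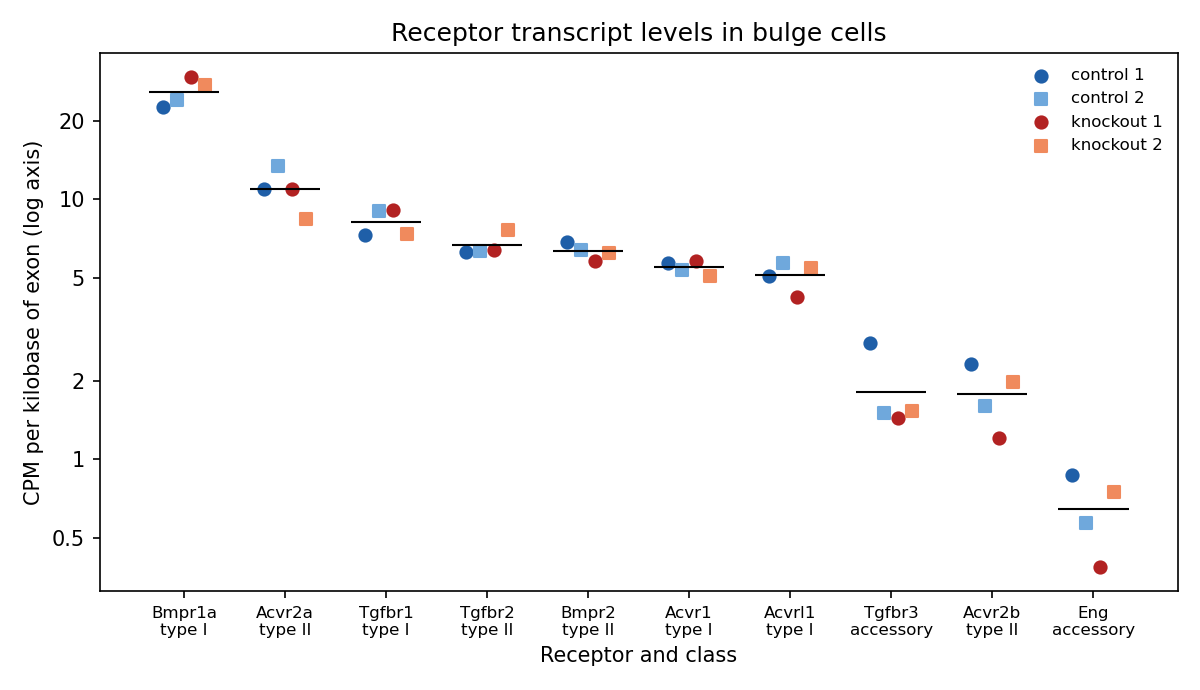
Level of each receptor transcript in the 4 libraries, as CPM per kilobase of exon on a log axis, ordered by the mean (horizontal bar). Bmpr1a stands alone at 22.6 to 29.4, 6 receptors lie between 4.20 and 13.4, and Eng is lowest at 0.386 to 0.872.

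The targeted gene was present in each library. Acvrl1 (ENSMUSG00000000530, chromosome 15, 101128522 to 101145336, plus strand, GRCm38) had 361 and 718 counts in controls and 390 and 483 in knockouts. Scaled, these are 21.6 and 24.3 CPM in controls and 17.9 and 23.1 in knockouts. Knockout 1 was lowest, while knockout 2 lay between the controls, so the groups overlapped. The fitted log2 fold change, knockout over control, was -0.16 ± 0.19 (SE; edgeR's quasi-likelihood test, adjusted p = 0.76), and its 95% confidence interval allows a fold between 0.653 and 1.22. Without knockout 1 the estimate was 0.006, and without knockout 2 it was -0.36. It was -0.24 without control 1 and -0.05 without control 2. The count covers the gene's whole exons and the deletion was directed at another cell type, so the value is no check of the labels.

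Blood endothelial transcripts were scarce in these libraries. Of 24 blood endothelial markers, 17 averaged under 1 CPM, and Sox17, Sox18 and Esm1 had no count in any library, which allows up to 0.102 to 0.180 CPM each (3 counts, for counting error only). Cdh5, the gene whose promoter drives Cre, measured 1.38 and 0.305 CPM in controls and 0.138 and 0.144 in knockouts. Pecam1, an endothelial adhesion molecule, measured 3.77 and 1.39 CPM in controls and 0.414 and 2.87 in knockouts. Kdr, the main VEGF receptor, stayed at 0.0919 to 0.814 CPM. Tek, the angiopoietin receptor, measured 2.69 and 2.07 CPM in controls and 3.17 and 10.6 in knockouts.

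In CPM, Acvrl1 was above each of the 24 markers in every library, as were 6 other receptors (Acvr1, Acvr2a, Bmpr1a, Bmpr2, Tgfbr1 and Tgfbr2). Per kilobase, Acvrl1 was above 23 of the 24 in every library, with Ramp2 above it in knockout 1 (4.46 against 4.20 CPM per kilobase). Acvrl1 counts were 15.7 and 79.8 times those of Cdh5 in controls. The ratio in control 2 rests on few Cdh5 counts (0.305 CPM, where 1 count is 0.0339 CPM). Each knockout had 3 Cdh5 counts, too few for a ratio. Against Pecam1 the ratio was 5.73 and 17.5 in controls and 43.3 and 8.05 in knockouts. The 24 markers together summed to 56.5 and 31.8 CPM in controls and 24.4 and 42.3 in knockouts, with Ramp2, an accessory protein of adrenomedullin receptors, giving 12.6 to 16.6 CPM of this in each library. Acvrl1 stood at 38.2% and 76.5% of that sum in controls and 73.6% and 54.6% in knockouts. The difference in the log2 ratio, knockout minus control, was 0.23 (exact permutation test, two-sided, p = 1), in a design whose smallest possible p is 0.333. In a bulk sample, fewer cells of a type and less RNA per cell cannot be told apart.

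Eng (ENSMUSG00000026814, chromosome 2, 32646595 to 32682669, plus strand) gave another picture. Endoglin is the accessory receptor that works with ALK1 in endothelium. Its transcript measured 3.53 and 2.30 CPM in controls and 1.56 and 3.02 in knockouts, from only 34 to 68 counts, and the groups overlapped. Control 1 was highest, then knockout 2, control 2 and knockout 1, the order also seen for Pecam1, Plvap, a component of endothelial fenestrae, and Vwf, the von Willebrand factor gene. In all, 6 of the 21 markers with a count had that order, as did 3.15% of all tested genes. Among the receptors, Tgfbr3 and Acvr2b had it too. The 21 markers and all tested genes are unlike sets, since only 8 of the 24 markers passed the filter on low counts. As a share of the marker sum, Eng was 6.25% and 7.24% in controls and 6.42% and 7.13% in knockouts, a 1.16-fold range, where the median range of this ratio over all tested genes was 2.45-fold. That comparison was chosen after the values were seen, and it rests on the choice of markers: against Pecam1, Cdh5 and Kdr alone, the ratio ran from 0.648 in control 1 to 2.43 in knockout 1. Counting error of Eng, from 34 to 68 counts, was not taken into account in these ratios. The ratio of Acvr2b to the 24 markers also had a narrow range, 1.23-fold, and that of Acvrl1 had a 2.00-fold range.

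The log2 fold change of Eng was -0.34 ± 0.45 (edgeR adjusted p = 0.79), with an interval from 0.373-fold to 1.68-fold. It was 0.06 without knockout 1, -0.01 without control 1 and -0.88 without knockout 2. The difference in the log2 ratio of Eng to the 24 markers was 0.007 (exact permutation test, two-sided, p = 1).

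**Figure D2:**
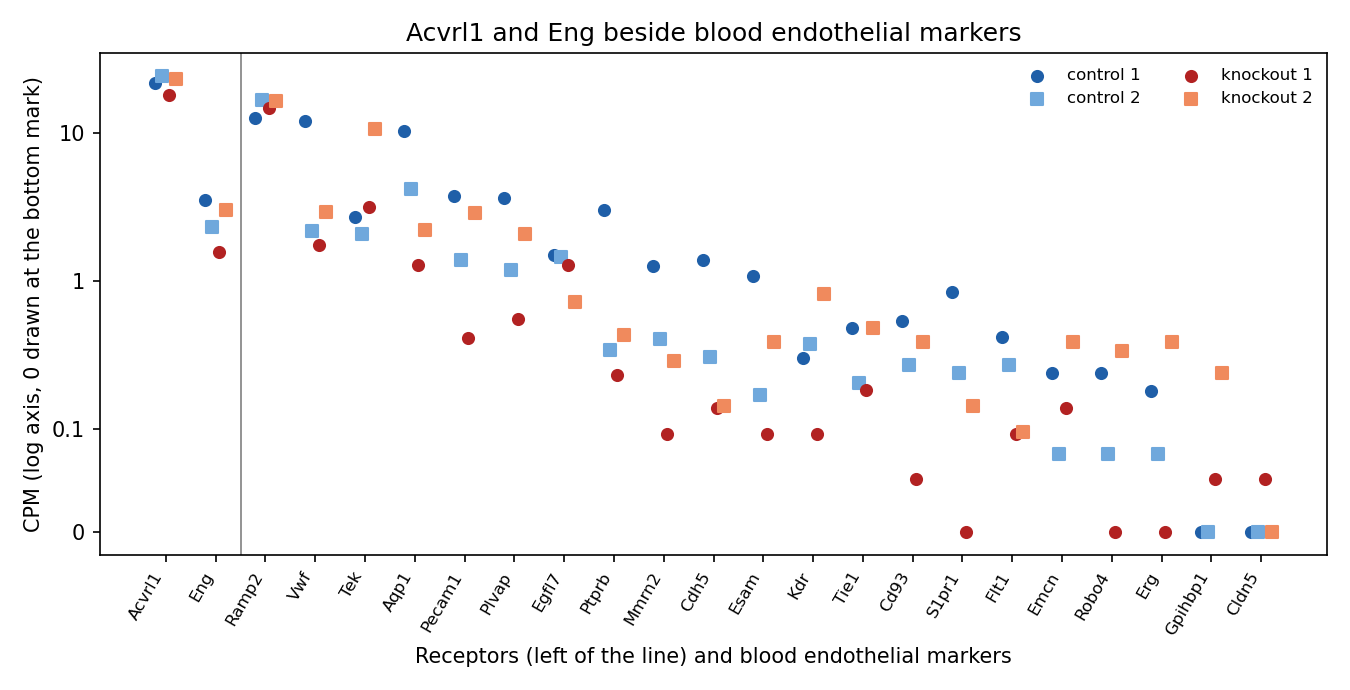
CPM of Acvrl1 and Eng (left of the line) and of the 21 blood endothelial markers with a count, in the 4 libraries, on a log axis with 0 drawn at the bottom mark. Acvrl1 lies at 17.9 to 24.3 CPM, above every marker on this scale, while Eng lies at 1.56 to 3.53 CPM among the markers.

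No receptor passed the test of knockout against control. Of the 10, 0 were called higher and 0 lower (edgeR adjusted p under 0.05), where 0.00701% of all tested genes were called higher and 0% lower. Adjusted p ran from 0.46 (Bmpr1a) to 0.98 (Tgfbr1). DESeq2 likewise called 0 of the 10, against 0.262% of genes higher and 0.54% lower. Its calls among the cell markers were Aqp1, a water channel (7.28 ± 4.35 CPM in controls, 1.75 ± 0.65 in knockouts), Fasn, a fatty acid synthase, and Npnt, a bulge matrix protein, as lower and Krt17, a follicle keratin, as higher (DESeq2 adjusted p = 0.044, 0.039, 0.012 and 0.049). At an unadjusted p under 0.05, 1 receptor was higher and 0 lower, against 4.8% and 5.94% of all tested genes. Both knockouts lay above both controls for 2 receptors (21.3% of all genes) and below both for 2 (23.6% of all genes), shares near the background. The median log2 fold change of the 10 was -0.15, with 7 below 0, beside a median of -0.02 and 52.5% below 0 over all tested genes. Over all tested genes the log2 fold change fell with exon length (Spearman correlation -0.25). With the trend on exon length and GC content removed, Acvr1 (0.033) and Bmpr2 (0.0996) were above 0. The counts of 0 held in 12 refits, control 1 or any other library left out included, and 4 of the 10 kept their sign in all 12. For 7 of the 10, the 95% interval lay within a 2-fold change in either direction.

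Among type I receptors, Bmpr1a had the smallest p. Bmpr1a (chromosome 14, 34410734 to 34503341, minus strand) measured 143 and 153 CPM in controls and 187 and 174 in knockouts. Both knockouts lay above both controls. The log2 fold change was 0.29 ± 0.12 (edgeR unadjusted p = 0.049, adjusted p = 0.46), and its interval, 1.001-fold to 1.49-fold, lies below a 2-fold change. The value kept its sign in each of 12 refits, between 0.23 and 0.39.

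Acvr1 (chromosome 2, 58388644 to 58567157, minus strand) measured 27.5 and 25.8 CPM in controls and 28.04 and 24.5 in knockouts. The knockouts bracketed the controls, with a log2 fold change of -0.02 ± 0.15 (edgeR adjusted p = 0.96) and an interval from 0.768-fold to 1.27-fold. Tgfbr1 (chromosome 4, 47353222 to 47414931, plus strand) measured 47.5 and 59.1 CPM in controls and 59.7 and 48.1 in knockouts. Here each group held a lower and a higher library, and the log2 fold change was 0.01 ± 0.17 (by edgeR, adjusted p = 0.98).

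Type II receptors differed in sign. Acvr2a (chromosome 2, 48814109 to 48903269, plus strand) measured 62.43 and 76.3 CPM in controls and 62.33 and 47.7 in knockouts. Knockout 1 lay just under control 1, so the groups were barely apart. Its log2 fold change was -0.34 ± 0.18 (edgeR adjusted p = 0.52), between -0.16 without knockout 2 and -0.54 without knockout 1. Bmpr2 (chromosome 1, 59763400 to 59879014, plus strand) measured 124 and 114 CPM in controls and 104 and 112 in knockouts. Both knockouts lay below both controls, by little, and the log2 fold change was -0.14 ± 0.12 (by edgeR, adjusted p = 0.67).

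The exons of Bmpr2 add up to 17983 bases, longer than those of 98.9% of tested genes, and long transcripts were lower in knockouts as a class: its length decile had a median log2 fold change of -0.19. With the trend on exon length and GC content removed, Bmpr2 gave 0.10 (edgeR adjusted p = 0.78), so its sign turned.

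Tgfbr2 (chromosome 9, 116084293 to 116175360, minus strand) measured 51.2 and 51.9 CPM in controls and 52.3 and 62.3 in knockouts, with a log2 fold change of 0.15 ± 0.14 (edgeR adjusted p = 0.69). Knockout 2 alone stood out, and without it the value was 0.02. Acvr2b (chromosome 9, 119402118 to 119434995, plus strand) was lowest of the type II receptors, at 9.10 and 6.30 CPM in controls and 4.73 and 7.76 in knockouts, with overlapping groups. Its log2 fold change was -0.30 ± 0.34 (edgeR adjusted p = 0.76), from -0.69 without knockout 2 to 0.02 without knockout 1.

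Of the accessory receptors, Tgfbr3 (chromosome 5, 107106570 to 107289629, minus strand) had the lowest estimate, -0.53 ± 0.32 (edgeR adjusted p = 0.56). It measured 18.4 and 9.89 CPM in controls and 9.42 and 10.01 in knockouts. Control 1 was high, and the other 3 libraries lay close together. Without control 1 the log2 fold change was -0.03, and without control 2 it was -0.90. Control 1 was also the library with the highest sums of interfollicular, sebaceous and blood endothelial markers given above, and their part in the Tgfbr3 value was not tested.

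**Figure D3:**
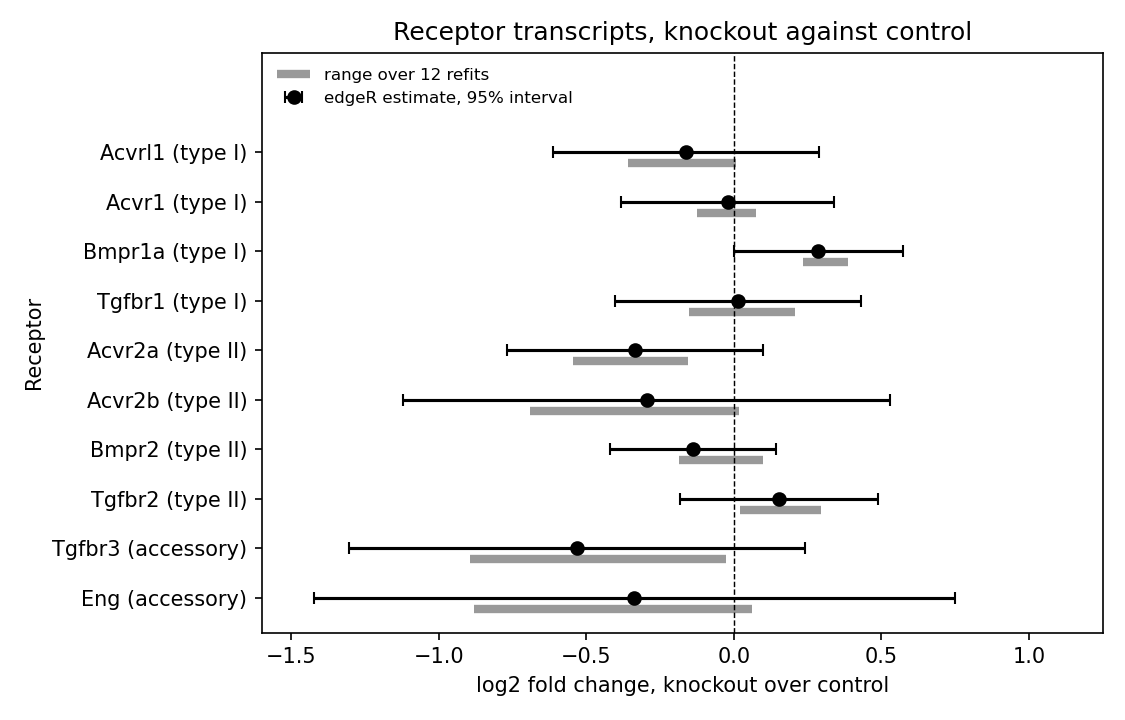
Log2 fold change of each receptor, knockout over control, from edgeR with its 95% confidence interval (black), and the range of the estimate over 12 refits with other settings or a library left out (grey). The interval of Bmpr1a begins at 0.0015 and those of the other 9 hold 0.

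The make-up of each receptor class was compared within libraries, on the scale of CPM per kilobase. Bmpr1a gave 55.6% and 54.5% of the 4 type I transcripts among the 10 receptors in controls and 60.6% in both knockouts. Acvrl1 gave 12.5% and 12.9% in controls and 8.66% and 12.0% in knockouts, and Acvr1 14.0% and 12.1% against 12.0% and 11.2%. Tgfbr1 gave 17.9% and 20.5% against 18.8% and 16.3%. Shares of one sum move together, and Bmpr1a was the largest term of the sum. The CPM of Acvr1 and of Acvrl1 overlapped between groups although their shares did not. The values also depend on the members summed. Over all 7 type I receptors, Acvr1b included, Bmpr1a gave 30.8% and 31.6% in controls and 39.8% and 33.1% in knockouts, and Acvr1b gave 44.3% and 41.96% against 34.2% and 45.4%. Acvr1 then gave 7.78% and 7.01% against 7.86% and 6.10%, with overlapping groups. Acvrl1 gave 6.91% and 7.49% against 5.69% and 6.53%, again without overlap although its CPM overlapped. How often shares of other genes stay apart was not tested.

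Among the 4 type II transcripts, Acvr2a was the leading member in each library, at 41.6% and 48.4% in controls and 45.0% and 34.7% in knockouts. Tgfbr2 gave 23.7% and 22.9% in controls and 26.2% and 31.5% in knockouts. Bmpr2 gave 22.9% to 26.0% and Acvr2b 4.95% to 8.77% over the 4 libraries. The ratio of Bmpr1a to Acvr2a, in CPM, was 2.30 and 2.00 in controls and 2.996 and 3.66 in knockouts (exact permutation test, two-sided, p = 0.333, the smallest this design can give). This ratio was chosen after the values were seen.

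**Figure D4:**
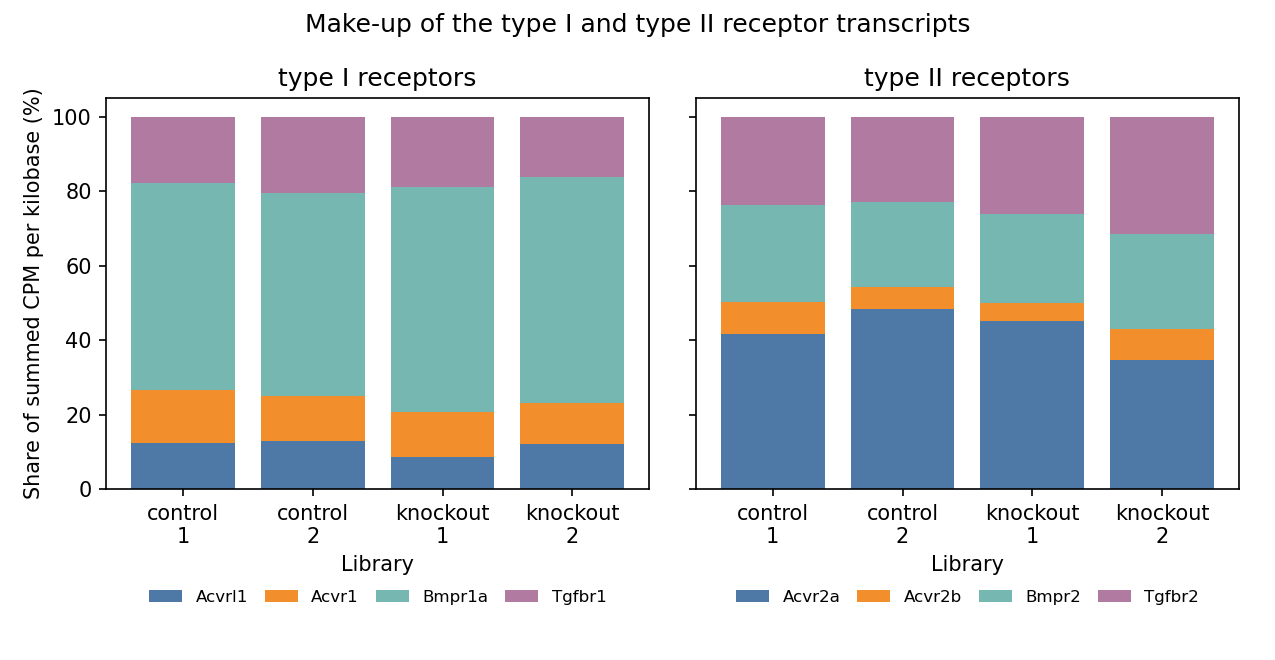
Share of each receptor in the summed CPM per kilobase of the 4 type I (left) and 4 type II (right) receptors among the 10, in each library; Acvr1b is not in the sum. Bmpr1a fills 54.5% to 60.6% of the type I bars, and Acvr2a 34.7% to 48.4% of the type II bars.

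The genes whose profile over the 4 libraries lay closest to Acvrl1 were Gm21811, Dtx3 and Tpcn2, with a root mean square difference of 0.010, 0.010 and 0.016 in centred log2 CPM. With 4 libraries this is a weak guide, since 3949 of 11781 genes lay within 0.2 of Acvrl1. Closest to Eng were Zfp455, H2-T10 and Lgals4, at 0.061, 0.065 and 0.076, with 109 genes within 0.2.

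Further receptors and co-receptors were read from a list of 22 genes, of which 16 were tested. Acvr1b, the activin type I receptor ALK4, was abundant at 144 and 141 CPM in controls and 112 and 167 in knockouts (mean 31.9 CPM per kilobase, above Bmpr1a), with a log2 fold change of -0.03 ± 0.20 (edgeR adjusted p = 0.96). The type I receptor Bmpr1b averaged 0.534 CPM, Acvr1c had a count in control 1 alone (0.239 CPM), and Amhr2, the receptor of anti-Müllerian hormone, averaged 0.137 CPM.

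Of these 16 genes, 0 passed in either direction in edgeR. The log2 fold change was below 0 for 14 of them, beside 52.5% of all tested genes. Their median was -0.27, beside -0.02 for all genes. Long transcripts were lower in knockouts as a class, and the part of exon length in these values was not tested. Nrp1, a co-receptor of semaphorins and VEGF that also binds TGF-beta, measured 15.98 and 18.1 CPM in controls and 7.08 and 5.08 in knockouts. Both knockouts lay far below both controls. Its log2 fold change was -1.49 ± 0.24 (edgeR unadjusted p = 0.00073, adjusted p = 0.43), and it was called lower by DESeq2 (adjusted p = 0.00057).

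Neo1, a receptor for repulsive guidance molecules, gave -0.53 ± 0.13 (edgeR unadjusted p = 0.0069, adjusted p = 0.43). The repulsive guidance molecules Rgma and Rgmb, which are BMP co-receptors, gave -0.27 and -0.24. Cd109, a TGF-beta co-receptor, was the most abundant of the list at 373 ± 27 CPM in controls and 310 ± 37 in knockouts (SD, n = 2 each), and its log2 fold change was -0.27. The integrin subunits Itgav, Itgb6 and Itgb8, which help release TGF-beta from its latent form, gave -0.41, -0.84 and 0.16. Itgb6 was low in knockout 2 alone, at 13.7 CPM against 48.4 to 64.2 in the others. The decoy receptor Bambi gave -0.15, Vasn, a TGF-beta trap, -0.07 and Nrp2 0.002.

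Ligands, SMADs and other partners of the receptors were counted in the same way. Over 9 lists holding 147 genes, 115 were tested and 0 passed in edgeR as higher or lower. At an unadjusted p under 0.05, 4 were higher (3.48%, beside 4.8% of all tested genes) and 15 lower (13.0%, beside 5.94%), with a median log2 fold change of -0.06. The part of exon length in these shares was not tested. DESeq2 called 2 higher and 1 lower of 108 (1.85% and 0.926%, beside 0.262% and 0.54% of all genes).

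Besides Nrp1, DESeq2 called Inhbb, the activin B subunit that signals through Acvr2a, Acvr2b and Acvr1b. Inhbb measured 61.7 ± 0.8 CPM in controls and 134 ± 54 in knockouts (SD, n = 2 each), and its log2 fold change was 1.12 ± 0.27 (edgeR adjusted p = 0.43, DESeq2 adjusted p = 0.013). Htra1, a secreted protease that can bind and restrain TGF-beta family ligands, gave 0.75 ± 0.12 (edgeR adjusted p = 0.43, DESeq2 adjusted p = 0.00015). Tgfb1, the ligand of Tgfbr2 and Tgfbr1, measured 20.1 ± 0.7 CPM in controls and 34.4 ± 7.7 in knockouts (log2 fold change 0.77 ± 0.19, edgeR adjusted p = 0.43).

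All 8 SMAD genes were tested and 0 passed, with a median of -0.06. Smad5, a mediator of BMP receptors, gave -0.31 ± 0.11 (edgeR unadjusted p = 0.029, adjusted p = 0.43). An adjusted p of 0.43 was thus shared by genes of unequal unadjusted p. Smad4, the partner of all receptor SMADs, gave 0.17 ± 0.16 (edgeR adjusted p = 0.70). Of the 31 tested genes of receptor traffic and inhibition 0 passed (median -0.02), with Cav1, a caveolar protein, and Tollip, an adaptor, the most abundant, at -0.003 and -0.03. The 6 corepressor genes had 0 passing and a median of -0.20, with Ski at -0.03 and Tob2 at -0.35.

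The 8 tested BMP ligand genes had a median of -0.14, with Bmp1, a protease named with the BMPs, and Bmp7 the most abundant at 0.11 and 0.43. Gdf2 and Bmp10, which encode the ligands of ALK1, had no count in any library. The 14 tested antagonists had a median of -0.08, with Fst (follistatin, a trap for activins) at 0.11 and Nbl1 (a BMP antagonist) at 0.28. Among target genes, 19 tested BMP targets had a median of 0.08, with Id2 at 0.26 and Nfatc1 at 0.11, and 16 tested TGF-beta targets a median of -0.15, with Ccn2 at -0.03 and Tgfbi at 0.27. In each of these lists 0 genes passed in edgeR.

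Receptor sequences were distinct enough to be told apart. Of all runs of 50 bases in the transcripts of the 10 receptors, 0 occurred in a second receptor. The share found in transcripts of any other gene, on either strand, was 0.910% for Acvrl1 and 6.98% at most, for Acvr2a. Acvr2a shares 446 exon bases with Orc4 on the opposite strand, where Orc4 had 302 to 659 counts. Eng shares 61 exon bases with Fpgs on the opposite strand, and Fpgs had 1013 to 2170 counts against 34 to 68 for Eng. The antisense genes Gm16031 (127 bases of Acvrl1) and Gm17110 (290 bases of Bmpr1a) reached 0 and 2 counts at most, and Gm43422, which shares 297 bases with Tgfbr3 on the same strand, 3. The library kit keeps the strand, but the sources used here do not name the strand setting of the counting, so reads in those stretches cannot be assigned with certainty.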

How the data were processed

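The authors deposited raw counts per gene for 4 libraries. The submitters' processing notes name Trim Galore 0.6.0, cutadapt, FastQC, STAR 2.7.0e and GRCm38 (mm10), and DESeq2 1.26.0. The sources used here do not say how, or with which annotation, reads were counted. All 55536 identifiers matched GENCODE M21 (GRCm38), which gave symbols, positions, exon lengths and GC content.

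Genes were kept by filterByExpr (14259) and scaled by TMM. Knockout was compared with control by edgeR 4.0.16's quasi-likelihood test in R 4.3.3 (robust, no covariates), with Benjamini-Hochberg adjustment over all tested genes and a threshold of 0.05. Log2 CPM used a prior count of 2. DESeq2 1.42.0 and limma-voom 3.58.1 were alternatives. On simulated counts for this comparison (14259 genes, 50 changed per fold), edgeR called 6% of genes simulated at a 1.5-fold difference. At a 2-fold difference it called 42%, at 4-fold 90% and at 8-fold 98%. Of its 134 calls 16 were false, a larger share than the threshold of 0.05 allows for. The changed genes all had at least 2 CPM, and the many large changes made the adjusted threshold easier to pass. The fit of the real counts called 1 gene, so these recovery shares may be too high for these data. Intervals cover counting error and the spread between libraries.

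The 10 receptors, the 22 other gene lists and the rules were chosen with earlier results of these data known. Genes outside the receptors were named by rule: co-receptors with a mean of at least 2 CPM, list members past the threshold or else the 2 of highest CPM, DESeq2 calls, and the 3 genes nearest in profile. Ratios between receptors and shares over 7 type I receptors were chosen after values were seen. Bmpr1b, Acvr1c, Amhr2, Gdf2, Bmp10 and markers beyond Pecam1, Cdh5, Kdr and Tek were named after their values were seen.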

Additional observations from a re-analysis of the deposited data

How the results depend on the processing

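No receptor passed in any of 12 refits: RLE or upper-quartile scaling, no filter, a filter of 50 counts in 2 libraries, DESeq2, limma-voom, the replicate block, removal of the length and GC trend, and each library left out. Bmpr1a, Tgfbr2, Acvr2a and Tgfbr3 kept their sign in all. Signs turned for Acvr1 (0.033) and Bmpr2 (0.0996) with the trend removed. With a library left out, the log2 fold change ran from -0.36 to 0.0064 for Acvrl1, -0.12 to 0.075 for Acvr1, -0.69 to 0.017 for Acvr2b, -0.15 to 0.21 for Tgfbr1 and -0.88 to 0.062 for Eng. Signs turned without control 1 for Acvr1 and Tgfbr1, without knockout 1 for Acvrl1, Acvr2b, Eng and Tgfbr1, and without knockout 2 for Acvr1. A lone library was then assumed to vary like the other group. The cause was not tested.

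Genes called higher and lower numbered 1 and 0 in the reported fit, 163 and 267 without a filter, 33 and 68 with DESeq2, and 25 and 81 with the replicate number as a block. Of pathway genes, these alternatives called 3 and 6, 2 and 1, and 2 and 1. Leaving out a library gave 1 to 39 genes higher and 0 to 26 lower: 39 and 26 without knockout 1, 2 and 2 without knockout 2, 2 and 0 without control 1, and 1 and 0 without control 2. Of pathway genes, 0 to 1 were then higher and 0 lower. The labels give no pairing, and deviations of same-numbered libraries correlated at 0.12.

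Against the 3 markers Pecam1, Cdh5 and Kdr, added after seeing the data, the log2 ratio differences were 0.92 (Acvrl1) and 0.70 (Eng), and against mean log2 CPM 0.30 and 0.10. With 2 libraries a group, few 1.5-fold changes would be called.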
